A study of Homo sapiens with 59 samples.

Results

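The 10 heat shock chaperone genes HSPA1A, HSPA1B, HSPA8, HSPH1, DNAJB1, HSP90AA1, HSPD1, HSPE1, BAG3 and HSPB1 were followed on Illumina bead arrays in THP-1, a line of human monocytic leukaemia cells. All probes that carry the symbol of one of these genes were taken, which gave 14 of the 24526 probes on the arrays and 10 of 16922 named genes. Cells had been differentiated into macrophage-like cells with the phorbol ester PMA at 10 ng/ml for 40 h and kept without PMA for 2 h. They then received rosiglitazone (RSG, 1 µM), which activates the nuclear receptor PPARG, or DMSO as vehicle, and were harvested after 0.5, 1.5, 3, 8 or 12 h. The 59 arrays formed 10 groups of 6 arrays each, except for 5 arrays of RSG at 1.5 h. All groups were of the same line and had the same PMA treatment, no group was harvested before the compound was added, and hours of treatment therefore ran together with hours after PMA removal and cannot be told apart from them. The labels do not say whether replicates were separate cultures, so that the tests measure the spread between arrays, which may be technical.

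Heat shock proteins bind unfolded or partly folded proteins and keep them from aggregating. Proteins of the HSP70 family do so in cycles of ATP binding and hydrolysis, in which J proteins stimulate hydrolysis and exchange factors release the ADP, while HSP90 acts on client proteins later in folding and the small heat shock proteins hold unfolded proteins without ATP. In mitochondria the HSP60 chaperonin folds imported proteins together with its cap HSP10. In stressed cells many of these genes are switched on by the transcription factor HSF1, which binds heat shock elements, inverted repeats of the unit GAA, in their promoters, and some of them are also transcribed in unstressed cells.

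Since the promoters of these genes are known for heat shock elements, the promoter windows are shown first. RefSeq promoter windows on GRCh38.p14 were found for 10 of 10 genes, 14 windows in all, and the 250 bases before each start were searched on both strands for a pair of inverted units, GAANNTTC or TTCNNGAA. A match was present in 7 of the 14 windows, those of 7 genes, HSPA1A, HSPA1B, HSPA8, DNAJB1, HSP90AA1, HSPD1 and HSPB1, compared with 4067 of 35116 windows of all genes (11.6%), or 3813 of 27305 genes (14%). A run of 3 units, GAANNTTCNNGAA or TTCNNGAANNTTC, in which the pairs overlap, was present in windows of 3 genes, HSPA8, HSP90AA1 and HSPD1, compared with 155 of all windows (0.441%). No match stood in the windows of HSPH1, BAG3 and HSPE1, which says only that these letters are absent from these windows. The stretch around the match nearest to the start is given for each of the 7 genes, 5′ to 3′ on the strand of the gene, with matches in capitals.
HSPA1A, chr6:31815411-31815470, plus strand: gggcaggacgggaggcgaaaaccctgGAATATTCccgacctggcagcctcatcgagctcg
HSPA1B, chr6:31827607-31827666, plus strand: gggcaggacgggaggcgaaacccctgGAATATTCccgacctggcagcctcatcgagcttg
HSPA8, chr11:123062156-123062215, minus strand: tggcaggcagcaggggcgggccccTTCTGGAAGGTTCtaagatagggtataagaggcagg
DNAJB1, chr19:14518411-14518475, minus strand: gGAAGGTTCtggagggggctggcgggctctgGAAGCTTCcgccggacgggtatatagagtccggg
HSP90AA1, chr14:102087097-102087156, minus strand: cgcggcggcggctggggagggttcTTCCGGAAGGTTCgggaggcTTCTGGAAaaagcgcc
HSPD1, chr2:197500031-197500090, minus strand: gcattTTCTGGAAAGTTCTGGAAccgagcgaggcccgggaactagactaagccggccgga
HSPB1, chr7:76302465-76302524, plus strand: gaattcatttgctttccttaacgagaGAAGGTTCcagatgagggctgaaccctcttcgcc

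The matches shown began 106 bases before the start in HSPA1A, 105 in HSPA1B and 182 in HSPB1. The HSPA1A and HSPA1B windows, of neighbouring genes, were identical at 235 of 249 aligned bases (94.4%) and held the same 8 letters at the match. HSPD1 and HSPE1, which lie head to head, have windows on opposite strands of chromosome 2, and one of the HSPD1 windows shared 104 bases with that of HSPE1. The printed HSPD1 stretch belongs to another HSPD1 window, which overlapped the HSPE1 window by 0 bases. These are descriptions of sequence, and no binding was measured here.

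Of the 14 member probes 12 were detected on 59 of 59 arrays and were tested, and the remaining pair, an HSP90AA1 probe (ILMN_1687546) and an HSPD1 probe (ILMN_1774410), was detected on 0 arrays. HSPA8 and HSPD1 had more than 1 tested probe. HSPA1A and HSPA1B are near-identical copies, and as the files hold no probe sequences the extent to which either probe reads both RNAs is unknown, so that their values are uncertain as values of single genes. Levels are log2 intensities after background correction and quantile normalization, and they compare arrays for 1 probe, not probes with each other. In such bulk samples fewer cells with an RNA and less RNA per cell cannot be told apart.

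The mean raw signal of an array was 318 to 1396, and 12182 to 13937 probes were detected per array. 5 arrays stood apart, replicates 2 and 5 of RSG at 12 h, replicate 1 of RSG at 8 h and replicates 4 and 6 of DMSO at 12 h. Their median correlation with all other arrays was 0.895 to 0.931, against 0.959 to 0.986 for the other 54, and LAMP3, a marker of mature dendritic cells, was at log2 13.39 to 14.01 on them and at 4.27 to 4.88 on the others. The mean level of 8 dendritic cell maturation genes was 10.83 to 11.78 on the 5 arrays against 5.06 to 5.65 on the others, and that of 10 macrophage and monocyte markers, detected on all arrays, was 10.75 to 10.98 against 11.47 to 11.88. Of 5 T cell markers 0 were detected on all arrays and 3 were detected on none (CD3E, CD2, TRAT1), and of the 3 B cell markers on the arrays 1 was detected on all (CD79B). Each result below rests on 59 arrays, and for the members the call over 54 is given where it differs.

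The chaperone genes as a group were higher at 8 and 12 h than at 0.5 h, and this was seen under RSG and under DMSO alike. At 8 h against 0.5 h, 9 of 12 member probes, of 8 genes, rose in RSG-treated cells and 0 fell, whereas 21.3% of all probes changed and 10.8% rose (limma, adjusted p under 0.05). In DMSO-treated cells 9 of 12, again of 8 genes, rose and 0 fell, against 24.5% of all probes changed and 13.3% higher. The median log2 difference of the 12 probes was 0.69 under RSG and 0.83 under DMSO, whereas the median over all probes tested was 0.0072 and 0.0022. At 12 h 11 of 12 changed under RSG, 10 higher and 1 (BAG3) lower, against 30.7% of all probes (15.8% higher), and 9 of 12 rose under DMSO, against 31% (16% higher). Over the 54 arrays 10 of 12 rose at 8 h under RSG (32.2% of all probes called) and 9 under DMSO (35.6%), and at 12 h 11 rose and 1 fell under RSG (35.9%) and 10 rose under DMSO (36.4%), the added call being that of HSPB1 wherever the count was larger.

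Before 8 h fewer members changed. At 1.5 h 0 of 12 passed the test in either treatment, with 5 under RSG and 3 under DMSO at an unadjusted p under 0.05, and 0.0196% and 0.613% of all probes were called. At 3 h 3 of 12 rose under RSG, those of HSPA1A, HSPA1B and HSPH1, against 4.81% of all probes (3.03% higher), and 4 of 12 rose under DMSO, those of the same genes and of DNAJB1, against 8.93% (4.76% higher). Without the 5 arrays apart these counts were larger, with 1 probe called at 1.5 h in each treatment (0.743% of all probes under RSG and 4.88% under DMSO), 6 at 3 h under RSG (13.4%) and 9, 6 higher and 3 lower, under DMSO (20.2%). None of these 5 arrays is of 0.5, 1.5 or 3 h, so that the differences themselves did not move and only the estimate of the spread did.

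Among the cytosolic HSP70 proteins, HSPA1A and HSPA1B encode the stress-inducible form. The median log2 level of HSPA1A (ILMN_1789074) was 7.46, 7.31, 8.03, 10.24 and 9.63 at 0.5, 1.5, 3, 8 and 12 h of RSG. It was 7.26, 7.27, 8.10, 10.23 and 9.96 at the same times of DMSO. The 8 h arrays lay between 9.74 and 10.52 under RSG, against 7.14 to 7.77 at 0.5 h, and between 10.01 and 10.49 under DMSO, against 7.05 to 7.66. No 8 h array thus overlapped the 0.5 h arrays of its treatment. The difference was 2.77 ± 0.13 under RSG (SE; 6.80-fold; limma, adjusted p = 2.65e-23) and 2.90 ± 0.13 under DMSO (7.45-fold, adjusted p = 2.85e-24). A rise was already called at 3 h, by 0.59 under RSG (adjusted p = 0.00372) and 0.76 under DMSO (adjusted p = 8.75e-05), again without overlap.

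HSPA1B (ILMN_1660436) had median levels of 8.48, 8.55, 9.81, 11.08 and 10.33 over the times of RSG and of 8.32, 8.60, 10.04, 10.99 and 10.44 over those of DMSO. At 3 h it was higher than at 0.5 h by 1.14 ± 0.23 under RSG (adjusted p = 0.00126) and by 1.61 ± 0.23 under DMSO (adjusted p = 4.76e-06). The DMSO groups did not overlap, with 9.90 to 10.27 at 3 h and 8.21 to 8.84 at 0.5 h. The RSG groups did, with 9.24 to 10.21 at 3 h and 8.15 to 9.84 at 0.5 h, because replicate 6 at 0.5 h was at 9.84 where the 5 others reached 8.74. At 8 h the difference was 2.40 ± 0.23 under RSG (5.27-fold) and 2.49 ± 0.23 under DMSO (5.62-fold), with no overlap in either. The DMSO difference at 3 h was 1.61 at the HSPA1B probe and 0.76 at the HSPA1A probe, whereas at 8 h that of HSPA1A was the larger. That contrast between probes was not tested.

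HSPA8 encodes the constitutive HSC70, which also strips clathrin from coated vesicles. Its median level at ILMN_2413084 was 13.21, 12.83, 13.42, 14.36 and 14.35 over the times of RSG, and 13.21, 12.94, 13.45, 14.37 and 14.32 over those of DMSO. Levels at 1.5 h were below those at 0.5 h on every array, 12.67 to 12.93 against 12.97 to 13.39 under RSG and 12.79 to 13.01 against 13.07 to 13.33 under DMSO. The differences of −0.40 and −0.29 missed the threshold over 59 arrays (limma, adjusted p = 0.146 and 0.141) and passed it over 54 (adjusted p = 0.0237 and 0.0342), where the call held in 7 of 11 fits without 1 array under RSG and in 5 of 12 under DMSO. At the other probe, ILMN_1686367, the 1.5 h differences were −0.22 and −0.21, and the groups overlapped (adjusted p = 0.507 and 0.312).

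At 3 h the HSPA8 differences from 0.5 h were 0.25 at ILMN_1686367 and 0.28 at ILMN_2413084 under RSG, and 0.24 and 0.27 under DMSO. They missed the threshold over 59 arrays (adjusted p = 0.0666 to 0.11), and all 4 were called higher over 54 (adjusted p = 0.0178 to 0.0227). By 8 h HSPA8 had risen at both probes, by 1.06 ± 0.09 and 1.10 ± 0.10 under RSG (2.08-fold and 2.14-fold) and by 1.06 ± 0.09 and 1.13 ± 0.10 under DMSO (2.09-fold and 2.19-fold). In none of these 4 comparisons did the 8 h arrays overlap those of 0.5 h. At 12 h the differences were between 1.00 and 1.10 under RSG and between 1.03 and 1.10 under DMSO. The rise at 8 and 12 h was thus read by both probes, and the lower level at 1.5 h was called at 1 of them and over 54 arrays only.

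DNAJB1 encodes an HSP40 J protein that stimulates ATP hydrolysis by HSP70. Its median level was 8.88, 8.64, 9.33, 9.66 and 9.72 over the times of RSG and 8.83, 8.82, 9.43, 9.74 and 9.88 over those of DMSO. The difference from 0.5 h at 3 h was 0.54 ± 0.12 under DMSO (adjusted p = 0.0026), without overlap, and 0.38 ± 0.12 under RSG (adjusted p = 0.0582; 0.0223 over 54 arrays). At 8 h it was 0.69 ± 0.12 under RSG (adjusted p = 2.24e-05) and 0.93 ± 0.12 under DMSO (adjusted p = 5.58e-08). The 8 h RSG arrays, at 9.32 to 9.85, overlapped those of 0.5 h, at 8.61 to 9.37, where replicate 6 was the highest, and the DMSO arrays did not overlap. The DNAJB1 difference was larger at 12 h than at 8 h in both treatments, 0.79 under RSG and 1.00 under DMSO, as it was for HSPE1 and for HSPD1 at ILMN_1784367, but the step between these times was 0.10 and 0.08 and was not called (adjusted p = 0.764 and 0.741).

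HSPH1 and BAG3 both encode exchange factors of HSP70, and they behaved differently. HSPH1 is the cytosolic HSP110, and its median level was 10.54, 10.08, 11.12, 12.31 and 11.99 over the times of RSG and 10.50, 10.25, 11.18, 12.19 and 12.15 over those of DMSO. At 3 h it had risen by 0.61 under RSG (adjusted p = 0.00587) and 0.62 under DMSO (adjusted p = 0.00246), and at 8 h by 1.71 ± 0.14 (3.27-fold) and 1.62 ± 0.14 (3.08-fold). The 3 h and the 8 h arrays overlapped the 0.5 h arrays in neither treatment. At 1.5 h its differences of −0.39 and −0.27 did not pass (adjusted p = 0.388 and 0.448).

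BAG3, which links HSP70 to the small heat shock proteins and to the autophagy of aggregated proteins, had median levels of 9.44, 9.22, 9.35, 9.52 and 9.13 over the times of RSG and 9.36, 9.10, 9.43, 9.59 and 9.00 over those of DMSO. At 8 h its difference from 0.5 h was 0.09 under RSG (95% interval −0.11 to 0.30, adjusted p = 0.594) and 0.24 under DMSO (0.03 to 0.44, adjusted p = 0.0888). At 12 h it fell below 0.5 h under RSG, by 0.39 ± 0.10 (adjusted p = 0.00228), with arrays at 8.70 to 9.17 against 9.20 to 9.49. Under DMSO the 12 h difference was −0.24 (adjusted p = 0.0712), and 1 array at 12 h, at 9.60, lay above all those of 0.5 h. BAG3 was the member that fell in a comparison with 0.5 h over 59 arrays.

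HSP90AA1 encodes the inducible cytosolic HSP90. Its probe ILMN_2373515 had median levels of 13.91, 13.73, 13.73, 14.37 and 14.28 over the times of RSG and 13.90, 13.95, 13.68, 14.36 and 14.27 over those of DMSO. At 8 h it had risen by 0.49 ± 0.10 under RSG (adjusted p = 0.000179) and by 0.39 ± 0.10 under DMSO (adjusted p = 0.00195), and the groups overlapped in both. At 3 h, when HSPA1A, HSPA1B and HSPH1 were higher, the HSP90AA1 differences were −0.14 under RSG (adjusted p = 0.534) and −0.25 under DMSO (adjusted p = 0.101; 0.0457 over 54 arrays). The DMSO arrays of 3 h, at 13.57 to 13.77, all lay below those of 0.5 h, at 13.87 to 14.12. That 54-array call was lost without most single arrays of the pair of groups, as it held in 1 of 12 such fits.

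HSPD1 and HSPE1 encode mitochondrial HSP60 and its cap HSP10. The HSPD1 probe ILMN_2381397 had median levels of 12.51, 12.45, 12.38, 13.16 and 13.16 over the times of RSG and 12.46, 12.58, 12.35, 13.08 and 13.04 over those of DMSO. It rose by 8 h by 0.69 ± 0.10 under RSG (adjusted p = 7.79e-07) and 0.62 ± 0.10 under DMSO (adjusted p = 4.82e-06), and no 8 h array overlapped those of 0.5 h. At 3 h its differences were −0.10 and −0.11 (adjusted p = 0.726 and 0.581). The other HSPD1 probe, ILMN_1784367, had a median raw signal of 118, against 5894 at ILMN_2381397 and 59.7 at the undetected HSPD1 probe. At log2 5.50 to 7.68, ILMN_1784367 was not called at 8 h, with differences of 0.31 (adjusted p = 0.136) and 0.05 (adjusted p = 0.872). At 3 h it differed by −0.35 under DMSO (adjusted p = 0.139; 0.026 over 54 arrays). At 12 h that probe was 0.51 higher under RSG (adjusted p = 0.00632) and 0.37 higher under DMSO (adjusted p = 0.0545), the last being 0.07 over 54 arrays. On the 5 arrays apart it was at 6.83 to 7.68, against 6.26 to 7.08 on the other 19 arrays of 8 and 12 h, and the part of those arrays' other differences in this was not tested.

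HSPE1 varied more between replicates than HSPD1 did. Its median level was 10.84, 10.72, 10.37, 11.46 and 11.47 over the times of RSG and 10.90, 10.72, 10.38, 11.12 and 11.66 over those of DMSO. At 8 h the difference from 0.5 h was 0.60 ± 0.19 under RSG (adjusted p = 0.0184) and 0.20 ± 0.19 under DMSO (adjusted p = 0.494), and at 12 h 0.79 (adjusted p = 0.00091) and 0.65 (adjusted p = 0.00669). The groups overlapped at both times. The RSG call at 8 h was lost without replicate 4 or without replicate 6 of RSG at 0.5 h, which were the lowest of that group at 10.43 and 9.71, and the difference without 1 array ranged from 0.39 to 0.74. At 3 h the differences were −0.30 under RSG (adjusted p = 0.45) and −0.50 under DMSO (adjusted p = 0.0886; 0.0447 over 54 arrays). The 54-array call held in 4 of 12 fits without 1 array.

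HSPB1, or HSP27, is a small heat shock protein, and its calls depended on the 5 arrays apart. The DMSO 8 h group, which held none of them, was at 13.55 to 13.73 against 12.71 to 12.97 at 0.5 h, a rise of 0.74 ± 0.19 (adjusted p = 0.00299) without overlap. The RSG 8 h arrays were at 12.29, the array apart, and at 13.42 to 13.73, against 12.73 to 13.11 at 0.5 h, and the difference was 0.47 (adjusted p = 0.0748) over 59 arrays and 0.69 (adjusted p = 2.31e-09) over 54. At 12 h the differences were 0.32 under RSG (adjusted p = 0.226) and 0.36 under DMSO (adjusted p = 0.152) over 59 arrays, and 0.63 (adjusted p = 5.95e-08) and 0.79 (adjusted p = 2.51e-10) over 54. On the arrays apart HSPB1 was at 12.27 to 12.83, below all the other 19 arrays of 8 and 12 h, at 13.35 to 13.88. The same 5 arrays were within the range of the other 19 for HSPA1B, HSPH1, BAG3 and HSPD1 (ILMN_2381397).

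**Figure D1:**
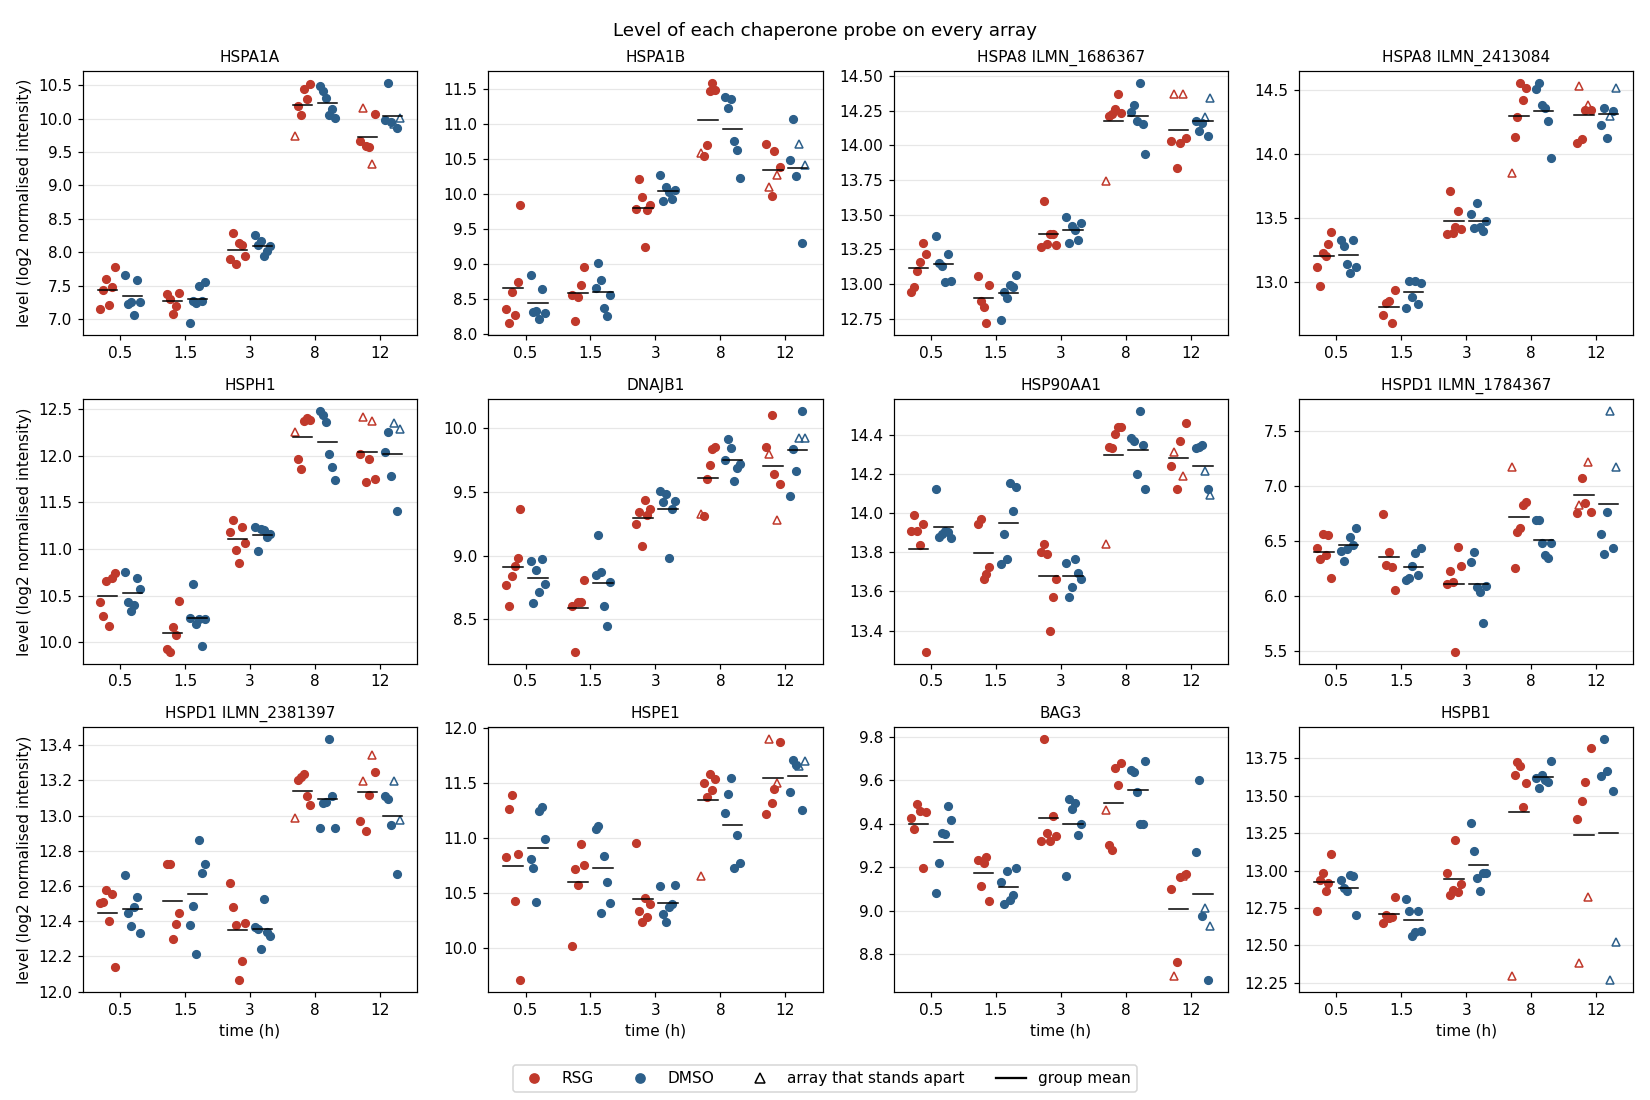
Log2 level of each of the 12 tested member probes on every array against hours of treatment, RSG in red at the left and DMSO in blue at the right of each time, with open triangles for the 5 arrays apart and a black line at each group mean. The 8 h and 12 h arrays of HSPA1A, at 9.31 to 10.54, lie above all arrays of 0.5 to 3 h, and the triangles of HSPB1 lie at 12.27 to 12.83, below the other late arrays.

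The steps between neighbouring times were compared after the values had been seen. Between 1.5 and 3 h 6 of 12 member probes, of 5 genes, rose in each treatment and 0 fell, against 6.07% of all probes (3.44% higher) under RSG and 9.86% (4.7% higher) under DMSO. These genes were HSPA1A (0.77 under RSG and 0.80 under DMSO), HSPA1B (1.21 and 1.44), HSPA8 (0.68 and 0.56 at ILMN_2413084), HSPH1 (1.00 and 0.90) and DNAJB1 (0.71 and 0.58). The genes of mitochondrial HSP60 and of HSP90 were not among them, with −0.17 and −0.20 for HSPD1 at ILMN_2381397 and −0.12 and −0.27 for HSP90AA1. Over 54 arrays HSPB1 was also called higher in both, and BAG3 higher and HSP90AA1 lower under DMSO, which made 7 of 12 calls under RSG (16.6% of all probes) and 9 under DMSO (21.7%). The HSPB1 call held in 5 of 11 fits without 1 array under RSG and in 12 of 12 under DMSO.

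Between 3 and 8 h 9 of 12 rose under RSG, against 14.7% of all probes (6.62% higher), and 10 of 12 under DMSO, against 15.3% (8.06% higher). HSPA1A made its largest step here, of 2.17 ± 0.13 under RSG and 2.14 ± 0.13 under DMSO, and HSPA1B rose by 1.26 and 0.88. HSP90AA1 (0.62 and 0.65), HSPD1 (0.79 and 0.74 at ILMN_2381397) and HSPE1 (0.90 and 0.71) rose in both treatments in this interval. HSPA1A, HSPA1B, HSPA8 and HSPH1 were thus called higher in both steps and both treatments, and HSP90AA1, HSPD1 and HSPE1 were called higher in the second step alone. The difference between the steps was not tested. The DMSO calls of DNAJB1 (0.38) and HSPB1 (0.59) in the second step held in 9 and 7 of 12 fits without 1 array. Over 54 arrays 11 of 12 rose in this step in each treatment, with DNAJB1 (0.36) and HSPB1 (0.67) added under RSG (25.9% of all probes) and HSPD1 at ILMN_1784367 (0.40) under DMSO (27.6%).

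Between 8 and 12 h 2 of 12 fell under RSG, HSPA1A by 0.48 (adjusted p = 0.035) and BAG3 by 0.48 (adjusted p = 0.00586), against 2.38% of all probes changed and 1.12% lower. Under DMSO 1 of 12 fell, BAG3 by 0.47 (adjusted p = 0.00543), against 7.69% changed and 4.65% lower. The RSG fall of HSPA1A held in 4 of 12 fits that left out 1 array and was 0.57 over 54 arrays (adjusted p = 0.00562), and under DMSO HSPA1A differed by −0.20 (adjusted p = 0.339). Over 54 arrays 3 of 12 fell under RSG (6.24% of all probes) and 1, BAG3, under DMSO (3.33%). The added call was that of HSPA8 at ILMN_1686367, by 0.28 without overlap (adjusted p = 0.0497), against a difference of −0.06 over 59 arrays (adjusted p = 0.808), and it held in 1 of 9 fits without 1 array. HSPA1B differed by −0.72 under RSG (adjusted p = 0.0696) and −0.56 under DMSO (adjusted p = 0.108).

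RSG and DMSO were then compared at each time, the question of the study. Of 12 member probes 0 were called at any of the 5 times (limma over 59 arrays), and at an unadjusted p under 0.05 the count was 0 at 0.5, 1.5, 3 and 8 h and 1 at 12 h. Of all probes 0% were called at 0.5, 1.5 and 3 h, 0.0782% at 8 h and 0.0196% at 12 h, so that few genes of any kind passed over these 59 arrays. The 60 differences lay between −0.31 and 0.23, and 51 of the 60 95% intervals lay within ±0.5 and 60 within ±1 on the log2 scale. The widest bounds were −0.70 and 0.68, both of HSPA1B.

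The HSPA1A difference at 12 h was the one with an unadjusted p under 0.05. HSPA1A was at 9.31 to 10.15 (median 9.63) under RSG, against 9.87 to 10.54 (median 9.96) under DMSO, and the groups overlapped. The difference was −0.31 (95% interval −0.58 to −0.05, adjusted p = 1) over 59 arrays and −0.36 (adjusted p = 0.30) over 54. Over 54 arrays the HSPD1 probe ILMN_1784367 also had an unadjusted p under 0.05 at 12 h, with a difference of 0.33 (adjusted p = 0.371). Again 0 members were called at any time (smallest adjusted p = 0.30), and of 78 other chaperone and related genes 1, a J protein, was called higher at 12 h. The share of all probes called between RSG and DMSO over 54 arrays is not given here.

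Averaged over all times, the RSG difference of the 12 probes was −0.09 to 0.06, the intervals spanned −0.22 to 0.21, and 0 of 12 were called or had an unadjusted p under 0.05 (smallest adjusted p = 0.999), against 0.209% of all probes called. For HSPA1A the differences at single times lay between −0.31 and 0.10, for HSPH1 between −0.15 and 0.05 and for HSPA8 between −0.11 and 0.00. A test for any difference between times in the RSG effect called 0 of 12 members, with 0 at an unadjusted p under 0.05, and 0% of all probes. A fold change of 2 in either direction at any single time was outside all 60 intervals, whereas smaller changes are within them for HSPA1B, HSPE1 and HSPB1 above all.

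**Figure D2:**
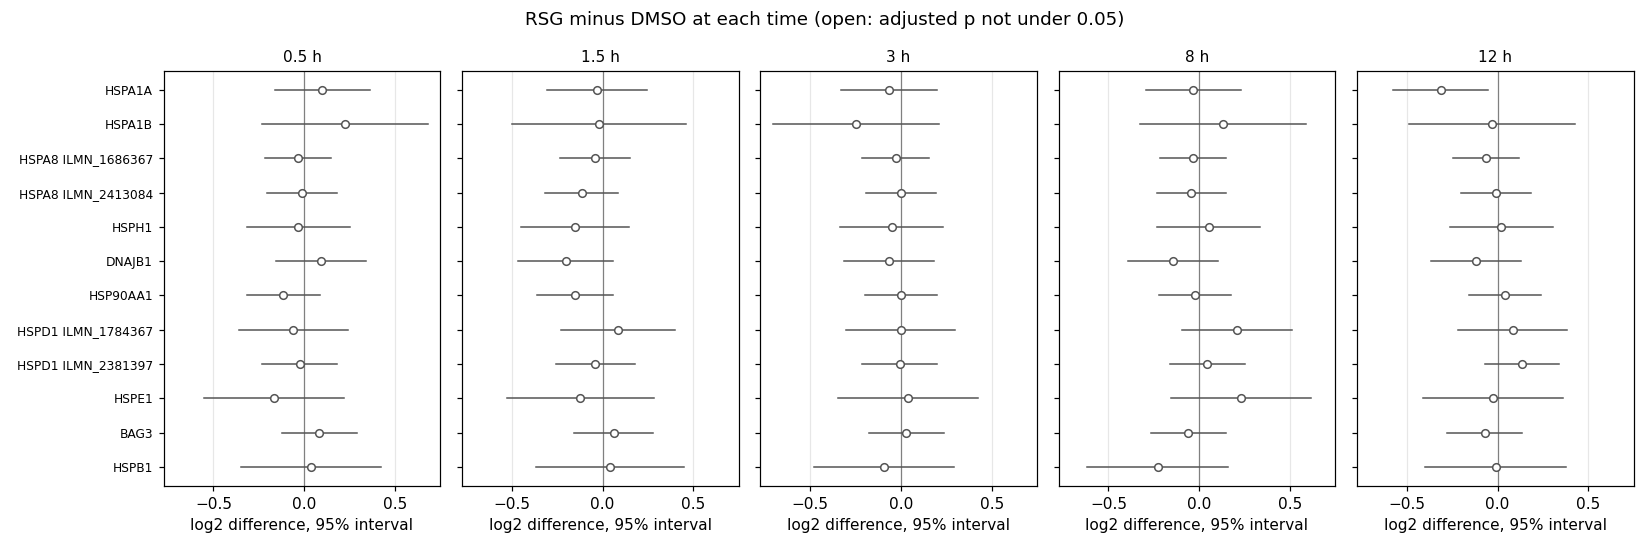
Log2 difference of RSG minus DMSO at 0.5, 1.5, 3, 8 and 12 h for each member probe, with 95% confidence intervals over 59 arrays, and open points where the adjusted p is above 0.05. All points are open and lie between −0.31 and 0.23.

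Within groups, correlations between members ran from −0.567 to 0.868. Over the 54 arrays, after subtraction of each group's mean, the deviations of HSPA1B and HSPH1 correlated at r = 0.868, and those of HSP90AA1 and HSPD1 (ILMN_2381397) at r = 0.835. HSPA1A followed HSPA8 (ILMN_2413084) at r = 0.659 and HSPA1B at r = 0.566. DNAJB1 went against HSPD1 and HSP90AA1, at r = −0.567 and −0.538. Points of these correlations share the array, its hybridization and its normalization, and they are given as descriptions.

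The 12 arrays of 8 h show HSPA1B and HSPH1 side by side. Under RSG, HSPA1B was at 11.47, 11.59 and 11.48 and HSPH1 at 12.37, 12.40 and 12.38 on replicates 4, 5 and 6, and HSPA1B was at 10.58, 10.53 and 10.70 and HSPH1 at 12.25, 11.96 and 11.85 on replicates 1, 2 and 3. Under DMSO, HSPA1B was at 11.38, 11.22 and 11.35 and HSPH1 at 12.48, 12.44 and 12.36 on replicates 1, 2 and 3, and HSPA1B was at 10.76, 10.63 and 10.23 and HSPH1 at 12.01, 11.87 and 11.73 on replicates 4, 5 and 6. Replicates of 1 group thus differed in HSPA1B with a gap inside each group. The mean raw signal of an array was 839, 402 and 526 on RSG replicates 4, 5 and 6 and 487, 743 and 551 on RSG replicates 1, 2 and 3. It was 420, 485 and 1028 on DMSO replicates 1, 2 and 3 and 508, 806 and 530 on DMSO replicates 4, 5 and 6. The highest signal of each treatment was thus on an array of high HSPA1B, RSG replicate 4 and DMSO replicate 3. Whether arrays of the treatments share a structure under unlike replicate numbers was not tested. No label names a batch for these arrays, and the gap was not tested.

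**Figure D3:**
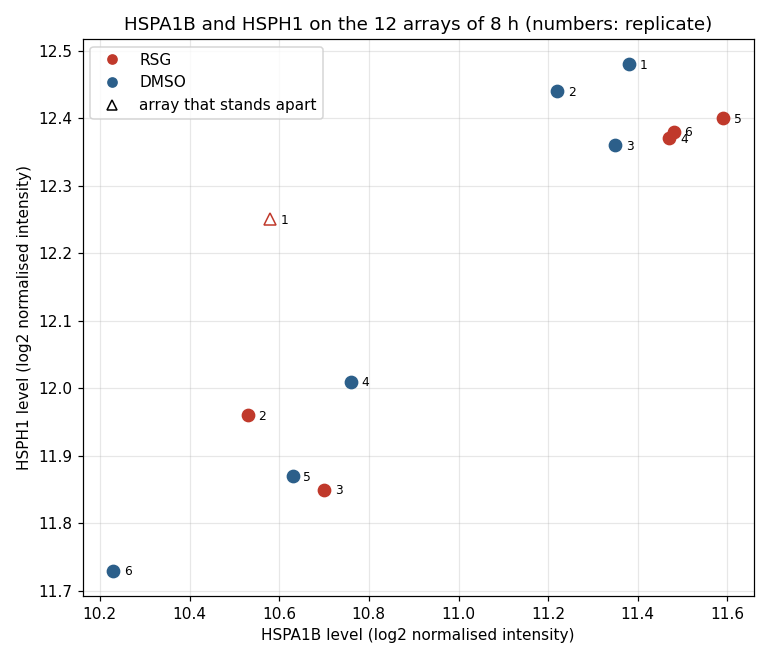
Log2 level of HSPH1 against that of HSPA1B on the 12 arrays of 8 h, RSG in red and DMSO in blue, with the replicate number beside each point and an open triangle for the array apart. HSPA1B lies at 11.22 to 11.59 on 6 arrays and at 10.23 to 10.76 on the others, in both treatments.

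The array of RSG at 0.5 h replicate 6 had the opposite make-up for 2 sets of members. It was the highest of its group in HSPA1B (9.84), DNAJB1 (9.37) and HSPB1 (13.11), as well as in HSPA1A, HSPH1 and HSPA8 (ILMN_2413084), and the lowest in HSP90AA1 (13.29), HSPD1 (12.14 at ILMN_2381397) and HSPE1 (9.71). The HSPA1B value lies inside the range of RSG at 3 h, 9.24 to 10.21, and outside that of the 5 other arrays at 0.5 h, 8.15 to 8.74. Without it the RSG count at 3 h was 5 of 12, against 3 with it, with DNAJB1 and HSPA8 (ILMN_2413084) called as well.

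Of 93 other genes in 9 lists of chaperones and related factors, 78 had a probe that was tested, 1 probe a gene. At 8 h against 0.5 h 12 rose and 6 fell under RSG, and 14 rose and 8 fell under DMSO, with a median difference of 0.08 and 0.11. The share called was 23.1% under RSG and 28.2% under DMSO, near the 21.3% and 24.5% of all probes. Over 54 arrays 18 rose and 6 fell under RSG (30.8%, against 32.2% of all probes), and 20 rose and 13 fell under DMSO (42.3%, against 35.6%). The counts of single lists rest on few genes and are given as descriptions. Of 6 HSP70 and HSP110 relatives 2 rose and 0 fell in each treatment, among them HSPA4L, an HSP110 relative, by 1.72 under RSG and 1.80 under DMSO. Over 54 arrays 2 rose and 0 fell under RSG, and 2 rose and 1 fell under DMSO. DNAJA1, a J protein of the cytosol, rose by 1.32 and 1.36. Of the 14 J proteins tested 5 rose and 1 fell in each treatment, including DNAJC9 (0.96 and 1.01) and DNAJA4 (0.85 and 0.82) among those higher and DNAJC5 (−0.50 and −0.51) as the one lower. Over 54 arrays 5 rose and 2 fell under RSG, and 6 rose and 2 fell under DMSO.

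Of 7 genes of HSP90 and its cochaperones 2 rose and 1 fell in each treatment, with SUGT1 at 1.22 under RSG and 1.24 under DMSO, FKBP4 at 1.22 under RSG and 1.19 under DMSO, and STIP1, which joins HSP70 to HSP90, at −0.28 and −0.26. Over 54 arrays 4 rose and 0 fell under RSG, where STIP1 was no longer called (−0.22, adjusted p = 0.0961), and 3 rose and 1 fell under DMSO. Of 9 exchange and degradation factors 0 rose and 1, BAG6, fell, by 0.58 and 0.52. Of 14 subunits of the CCT chaperonin and prefoldin, which fold actin and tubulin, 0 rose and 1 fell under RSG and 1 rose and 2 fell under DMSO, with PFDN1 at −0.57 and −0.44, and over 54 arrays 2 rose under RSG. Of 8 genes of mitochondrial chaperones and proteases other than HSPD1 and HSPE1 1 rose and 1 fell in each treatment. DNAJA3 was the one higher, by 0.38 and 0.30, and the one lower was LONP1 under RSG (−0.44) and GRPEL1 under DMSO (−0.49). Over 54 arrays 2 rose and 1 fell under RSG, and 1 rose and 2 fell under DMSO.

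In the endoplasmic reticulum, where a separate stress response controls many chaperones, 2 of 11 genes rose and 1 fell under RSG and 3 rose under DMSO (27.3% called in each). DNAJB9 rose by 0.84 and 0.78 and SERPINH1, the collagen chaperone HSP47, by 0.79 and 0.92. Over 54 arrays 3 rose and 0 fell under RSG, and 6 rose and 1 fell under DMSO. Of 5 tested genes of the list built around the heat shock factors 0 were called under RSG and 1 under DMSO, HSF1 itself, which fell by 0.57 (adjusted p = 0.0118). Under RSG HSF1 differed by −0.35 (adjusted p = 0.159), and by −0.43 over 54 arrays (adjusted p = 0.0567), and was not called. Over 54 arrays TRPC4AP was called lower, by 0.38 under RSG (adjusted p = 0.0389) and 0.36 under DMSO (adjusted p = 0.0385). Of 4 small heat shock proteins other than HSPB1 0 were called under RSG and 1, HSPB3, fell by 0.40 under DMSO, and over 54 arrays HSPB7 was called higher under DMSO, by 0.68 (adjusted p = 0.000264). At 12 h 6 of 14 CCT and prefoldin genes were higher and 1 lower under RSG over 59 arrays, and 4 were higher and 2 lower under DMSO. The share called was 50% and 42.9%, against 4708 and 4755 of all 15336 probes. Over 54 arrays 1 was higher and 1 lower in each treatment (14.3%), so that the count depended on the 5 arrays apart. Of the 78 genes of all lists 37.2% and 41% were called at 12 h over 59 arrays, and 32.1% and 37.2% over 54.

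**Figure D4:**
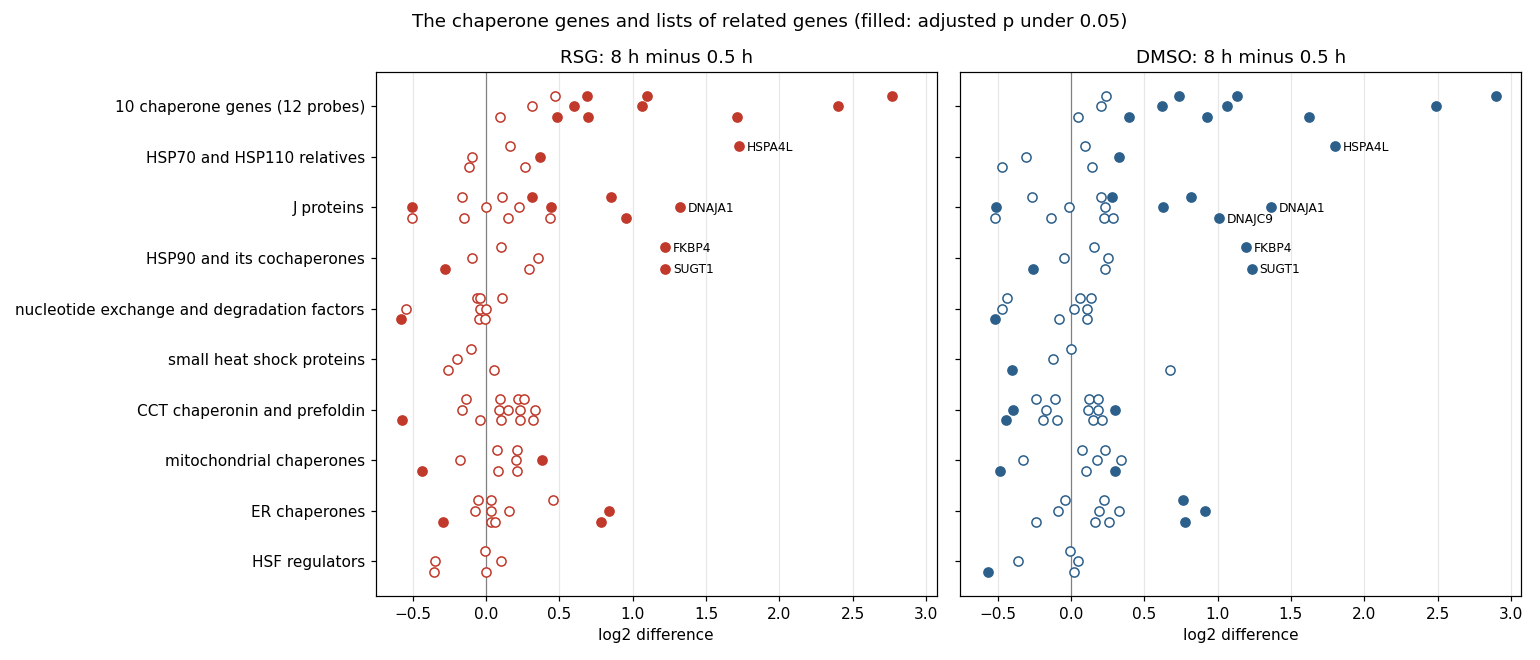
Log2 difference at 8 h from 0.5 h for the 10 chaperone genes and for the tested genes of 9 lists of related genes, RSG in the left panel and DMSO in the right, 1 point a probe, which for the lists is 1 a gene, and filled points at an adjusted p under 0.05. HSPA1A, HSPA1B and HSPH1 reach 2.77, 2.40 and 1.71 in the left panel, and among the lists HSPA4L (1.72 and 1.80) and DNAJA1 (1.32 and 1.36) lie farthest to the right.

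Genes whose levels ran most like those of the members were sought among 9973 other named genes over the 54 arrays. With the mean of the standardised members, Pearson's r was 0.956 for HSPA4L, 0.948 for ACO1, 0.947 for ENOX2, 0.946 for NIPAL3 and 0.941 for CYB5A. Their differences at 8 h over these arrays were 1.86 and 1.80 (HSPA4L), 0.87 and 0.80 (ACO1), 0.78 and 0.72 (ENOX2), 0.87 and 0.79 (NIPAL3) and 1.30 and 1.20 (CYB5A) under RSG and DMSO. For single members the closest gene was DNAJA1 for HSPA1B (r = 0.954), HSPA8 (0.957) and HSPH1 (0.966), and CYB5A for HSPA1A (0.964). The closest genes were USP37 for DNAJB1 (0.927), HACD2 for HSP90AA1 (0.935), PARPBP for HSPD1 (0.91), G3BP1 for HSPE1 (0.889) and FOXRED1 for HSPB1 (0.936). BAG3 had the weakest match of the 10 genes, TPMT at 0.702. All arrays share the time course, so that any gene that rose between 3 and 8 h scores high, and the values are descriptions.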

How the data were processed

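The first deposited table holds 1 average signal per probe and array on a linear intensity scale, deposited as non-normalized, for 59 arrays. Beside each intensity the authors deposited a detection p-value, which sets the signal against the array's negative controls. In the second deposited table the authors had subtracted a background from the intensities and scaled them to a common array mean (BeadStudio), and it served as an alternative. Probes were named from the platform annotation, with symbols updated through RefSeq gene IDs, and 21834 of 24526 probes had 1 symbol. A further 5 probes occur only in the first table and were left out.

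Background correction, with an offset of 16, quantile normalization and log2 were done by neqc (limma 3.58.1, R 4.3.3). Probes with a detection p under 0.01 on 5 or more arrays, 15336 in all, were kept. Each had 1 mean per group (10 groups) in a linear model, tested with limma's moderated statistics fitted across all probes. Tests were 2-sided, adjusted by the Benjamini-Hochberg method over the 15336 probes, with a threshold of 0.05, and the scripts were tested on simulated data. Of the comparisons 15 were named at the outset, and 6 between neighbouring times were added after the values had been seen. No pair of arrays was identical. Alternatives were 54 arrays, without 5 whose median correlation with the others was under 0.95, the authors' scaled table, no background correction, no detection filter, 1 probe a gene, a replicate block, array weights, only the groups compared, a plain linear model and leaving out each array in turn. The number of arrays, 5 or 6 a group, limits the precision.

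Outside the 10 genes, up to 3 called genes of each list with the largest difference were named, and the genes that correlated best with the members. The members, lists and rule were chosen with earlier results of these data known and are no independent support for a pattern.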

Additional observations from a re-analysis of the deposited data

Results flagged for a closer look

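With 1 probe per gene, that of the highest mean signal, 100 groups of 5 or 6 arrays were examined, and 11 held an array whose gap to its neighbour was unusually wide for the range of its group by Dixon's criterion, where chance gives about 1 in 20, or 5 groups. In HSPA1A it was replicate 2 of DMSO at 12 h, the highest at 10.54 with the next at 10.0. In HSPA1B it was replicate 6 of RSG at 0.5 h, the highest at 9.84 with the next at 8.74. In DNAJB1 replicate 4 of DMSO at 3 h was the lowest, at 8.985 with the next at 9.37. HSP90AA1 had 3 such arrays, replicate 6 of RSG at 0.5 h (13.29, next 13.84), replicate 1 of RSG at 8 h (13.84, next 14.33) and replicate 1 of DMSO at 0.5 h (14.12, next 13.91). In HSPD1 replicate 4 of DMSO at 8 h was the highest, at 13.43 with the next at 13.11. HSPE1 had replicate 1 of RSG at 3 h (10.95, next 10.45) and replicate 1 of RSG at 8 h (10.66, next 11.37). In BAG3 replicate 2 of RSG at 3 h was the highest, at 9.79 with the next at 9.44, and in HSPB1 replicate 1 of RSG at 8 h was the lowest, at 12.29 with the next at 13.42. Of the 11, 3 were on replicate 1 of RSG at 8 h, one of the 5 arrays apart, and replicate 6 of RSG at 0.5 h appeared for HSPA1B and HSP90AA1, on opposite sides.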

How the results depend on the processing

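Over the alternatives other than leaving out an array, 1880 member values were refitted, of which 1806 kept their direction and their side of the threshold, 9 fell below it, 65 passed it and 0 reversed, while 49 values that were not called changed sign. At 1.5 h 0 of 12 members were called in each treatment, and 1 in each without the arrays apart or with array weights (0 to 1 without single arrays, of the 59 or of the 54). At 3 h the count was 3 under RSG, and 6 without the arrays apart and 7 with array weights (3 to 9 without single arrays, and 5 without RSG 0.5 h replicate 6 of the 59). Under DMSO it was 4, and 9 without the arrays apart, with array weights or with only the groups compared (4 to 8 without single arrays). From 1.5 to 3 h under DMSO it was 6, and 10 with array weights (6 to 10 without single arrays). From 8 to 12 h it was 2 under RSG, and 1 in the authors' scaled table, 4 with array weights and 0 with only the groups compared (1 to 3 without single arrays), and 1 under DMSO, and 2 with array weights and 0 with only the groups compared (0 to 2 without single arrays, 2 without DMSO 12 h replicate 2 and, of the 54, 0 without DMSO 8 h replicate 6 or DMSO 12 h replicate 3 or 5). The calls at 8 and 12 h of HSPA1A, HSPA1B and HSPH1 held without any single array. For the comparisons up to 3 h, leaving out the arrays apart alters only the estimate of the spread; the cause of the other shifts was not tested.

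A replicate block changed no call of a member, with 9 of 12 called at 8 h against 0.5 h in both treatments as before. As no label ties a replicate number to a culture or batch, unchanged calls do not show that structure shared between arrays was accounted for. The labels name no pairing, and the arrays were not treated as paired. Residuals of same-numbered arrays of both treatments at 1 time correlated at −0.36 to −0.20 on average, against 0.041 to 0.11 for other numbers. Between a later time and 0.5 h of 1 treatment the averages were −0.20 to 0.18, against −0.036 to 0.039, with the highest for DMSO at 3 h, where all 6 same-numbered pairs lay between 0.058 and 0.36. In the authors' scaled table the median difference of all probes at 8 h against 0.5 h under DMSO was 0.106, and of the calls 74.7% were higher instead of 54.4%. Under RSG the share was 66.6% instead of 50.5% at 8 h, 81.4% instead of 62.9% at 3 h and 67.1% instead of 51.5% at 12 h, under DMSO at 12 h 63.7% instead of 51.5%. Of the steps, it was 76.5% instead of 56.6% from 1.5 to 3 h under RSG, 80.0% instead of 52.7% from 3 to 8 h under DMSO, 63.7% instead of 53.2% from 8 to 12 h under RSG and 23.7% instead of 39.5% under DMSO.

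With 5 or 6 arrays a group, 51 of 60 intervals of RSG against DMSO lay within ±0.5 on the log2 scale and the others reached beyond it. The offset added in background correction makes differences of probes near background smaller on the log2 scale.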
